A study of Mus musculus with 6 samples.

Results

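Expression of 10 genes that write or erase methylation on H3K36, a lysine in the tail of histone H3, was compared between mouse kidney tubule cultures with and without a deletion of Setd2. The 10 genes were taken by name from the 48526 genes of the count tables, and every one passed the filter on low counts. They comprise 5 methyltransferase genes (Setd2, Nsd1, Nsd2, Nsd3 and Ash1l) and 5 demethylase genes (Kdm2a, Kdm2b, Kdm4a, Kdm4c and Riox1). The comparison asks whether other enzymes of the mark change when Setd2 is deleted.

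The cells were primary renal tubular epithelial cells, grown from digested kidney cortex of mice 4 to 5 weeks old, with 20 ng/ml EGF and 100 nM hydrocortisone in the medium, and no step that selects tubule cells is described. All mice carried Setd2(F/F), floxed alleles that Cre recombinase can cut. The 3 KO libraries, labelled SETD2-deficient, came from Setd2(F/F)Ksp-Cre+ mice, and the 3 WT libraries, labelled SETD2-proficient, from Setd2(F/F) littermates without Cre. The Ksp promoter is that of Cdh16, a cadherin gene of tubule epithelium, which limits the deletion to cells that use it. Only the KO mice carried Cre, so Cre and the deletion cannot be told apart. No source used here says that each replicate was a separate animal, so the p-values speak only of the spread among libraries. By Xist and Y-linked transcripts, given below, KO replicate 1 differed in sex from KO replicates 2 and 3. The KO libraries therefore did not all come from the same mouse. Among the WT libraries, and between KO replicates 2 and 3, the spread may be technical.

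H3K36 methylation marks transcribed chromatin. SETD2 travels with elongating RNA polymerase II and is the main enzyme that places the trimethyl form over gene bodies. NSD1, NSD2, NSD3 and ASH1L place the mono- and dimethyl forms, which SETD2 can build on and which cover wider regions between genes. KDM2A and KDM2B remove the lower forms and bind unmethylated CpG-rich promoters through a CXXC domain, while KDM4A and KDM4C remove the higher forms and also act on H3K9. RIOX1 (NO66) is an oxygenase that hydroxylates a ribosomal protein and has been reported to demethylate H3K36. Loss of SETD2 is frequent in clear cell kidney cancer.

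No other enzyme of the set was called higher in KO, and 2 were called lower. Riox1 fell by 0.48 on the log2 scale and Nsd2 by 0.25, with edgeR quasi-likelihood adjusted p-values of 0.0103 and 0.0394. The 2 calls among 10 genes equal 20.0%, beside 21.0% of the 17571 tested genes called in either direction, so the share of calls is not a feature of these genes. Lower calls made up 9.08% of all tested genes and higher calls 12.0%. Of the 9039 tested genes with a mean of at least 10 CPM (read counts scaled to a common library size with TMM factors), 23.1% were called, 13.0% lower and 10.1% higher. In 3 genes, Nsd1, Nsd2 and Riox1, every KO library lay below every WT library, and in 0 did every KO library lie above. Among all tested genes the groups did not overlap in 41.9%, with KO below in 21.3% and above in 20.6%, and among those with at least 10 CPM in 46.2%, with KO below in 28.1% and above in 18.1%. The 10 log2 fold changes ran from -0.48 (Riox1) to -0.0045 (Kdm4a), with a median of -0.095, beside -0.0083 over all tested genes and -0.046 over those with at least 10 CPM. All 10 were below 0 in this fit, as were 51.1% of all tested genes and 58.1% of those with at least 10 CPM, but Nsd3 and Kdm4a were above 0 with upper-quartile scaling and with a filter at a mean of 1 CPM, and Kdm4a also with DESeq2's size factors.

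The libraries held 86078636 to 106974842 counts, and the least abundant gene of the set, Riox1, had 878 counts in its lowest library. WT replicate 1 stood apart from the other 5 libraries by base composition. In the tenth of tested genes with the lowest transcript GC content, its median log2 CPM lay 0.20 above the mean of the 6 libraries, and in the tenth with the highest it lay 0.34 below. In those same lowest and highest bins the other libraries lay between -0.091 and 0.043 and between 0.026 and 0.14. The 10 enzyme genes followed this pattern: WT replicate 1 was above the mean of the other WT libraries in the 7 genes with a GC content of 41.4% (Nsd2) to 48.3% (Kdm2a), and below it in Kdm2b, Kdm4a and Riox1, at 52.6% to 61.4%. Values without WT replicate 1 and with offsets for 10 GC bins, an alternative chosen after seeing the data, therefore stand beside the results. KO replicates 2 and 3 expressed Xist, the RNA of the inactive X chromosome, at 507 and 606 CPM, and the other libraries at 0.348 to 0.683 CPM, so sex and genotype partly coincide. None of the 10 genes is on chromosome X or Y.

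**Figure D1:**
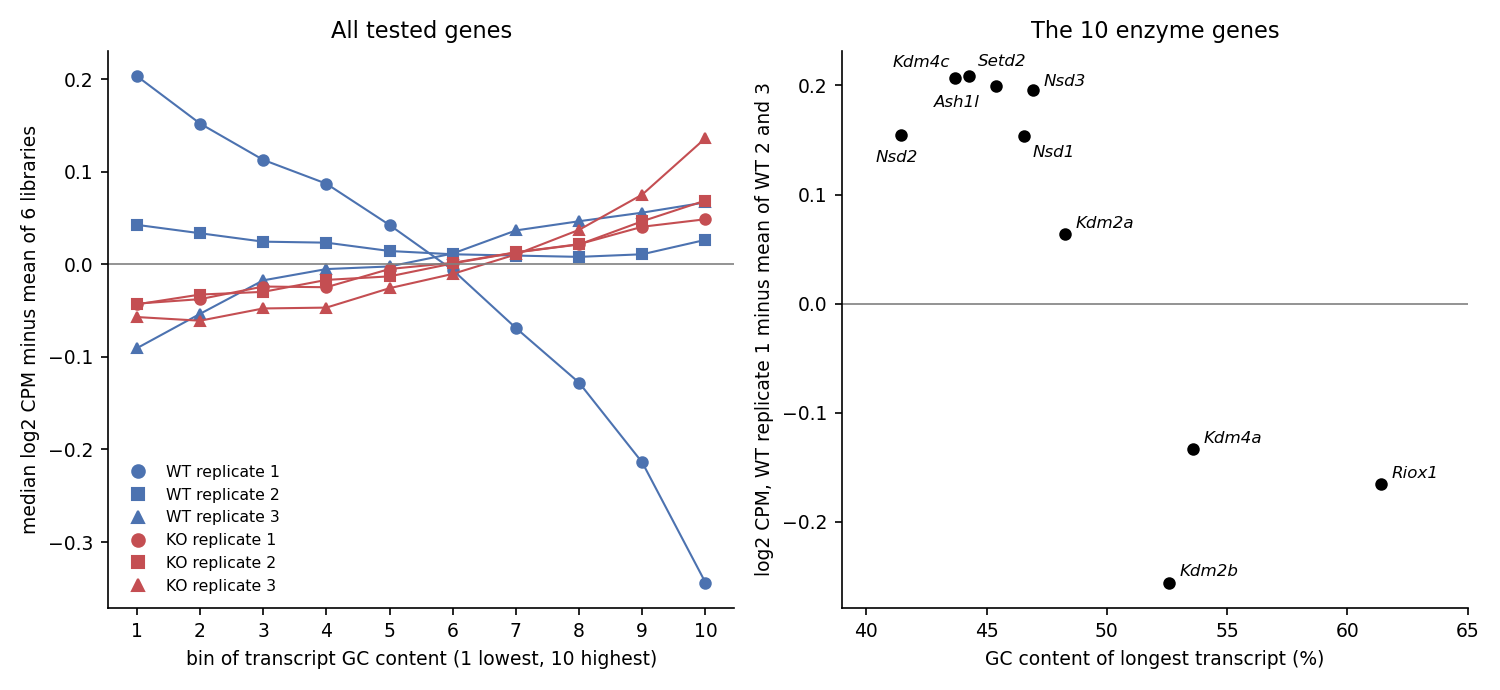
Left, the median of log2 CPM minus the mean of the 6 libraries (vertical axis) in 10 bins of transcript GC content (horizontal axis), for each library over all tested genes. Right, log2 CPM of WT replicate 1 minus the mean of WT replicates 2 and 3 (vertical axis) against transcript GC content in percent (horizontal axis) for the 10 enzyme genes. WT replicate 1 runs from 0.20 in the lowest bin to -0.34 in the highest, and the 7 genes up to 48.3% GC lie above 0 while the 3 from 52.6% lie below.

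Markers of tubule epithelium were abundant in every library. Krt8 ranged from 2227 to 2810 CPM and Cdh16 from 709 to 926 CPM, and the summed level of 12 tubule markers was 7621 to 9058 CPM in WT and 9126 to 9257 CPM in KO. In that list 3 of 12 genes were called higher (Pax2, Cldn4 and Cdh16) and 0 lower, and 2 had a log2 fold change below 0. Epcam was lower in every KO library, at 411, 445 and 409 CPM in WT and 386, 364 and 379 CPM in KO. For markers of other cortical cells, between 5 and 6 genes of each list were called higher, beside 12.0% of all tested genes. Of 12 endothelial markers 6 were called higher, with sums of 22.2 to 23.9 CPM in WT and 32.5 to 44.2 CPM in KO. Of 12 macrophage and leukocyte markers 6 were called higher (40.4 to 47.8 and 52.6 to 61.4 CPM), of 10 podocyte markers 5 (596 to 676 and 681 to 718 CPM, most of it Nes, at 490 to 572 CPM in WT and 517 to 524 CPM in KO), and of 10 tested fibroblast, pericyte and smooth muscle markers 6, with sums that overlapped (115 to 155 and 122 to 202 CPM). No marker of these lists was called lower (Nes and Cd14 had log2 fold changes of -0.056 and -0.50, with adjusted p-values of 0.647 and 0.0557), and the fibroblast markers Dcn and Lum, with 47 and 6 counts over all libraries, did not pass the filter. Their part in the values of the enzyme genes was not tested. In bulk cultures, fewer cells of a type and less RNA per cell cannot be told apart.

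Setd2 (ENSMUSG00000044791), the gene floxed in these mice, lies on the plus strand of mm10 chromosome 9 from 110532597 to 110618633, with 23 blocks of annotated exons. Its level was 185, 168 and 152 CPM in the WT libraries, given here and below in order of replicate number, and 163, 154 and 158 CPM in the KO libraries. The KO values lay inside the WT range. The log2 fold change was -0.085 ± 0.081 (SE), adjusted p = 0.481 (edgeR), with a 95% interval from -16.6% to 6.62%. Without WT replicate 1 it was -0.0014, and with GC offsets -0.0080. Counts summed over a whole gene do not show whether single exons were lost, so these values do not check the deletion, and the mark itself was not measured here.

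The 3 genes of the NSD family are close relatives that carry PWWP and PHD modules beside the catalytic SET domain. Nsd2 (ENSMUSG00000057406, chromosome 5, 33820725 to 33897975) was the most abundant by CPM, at 257, 230 and 232 CPM in WT and 200, 213 and 194 CPM in KO. All KO libraries were below all WT libraries. The means were 240 ± 15.1 and 202 ± 9.45 CPM (SD, n = 3 each), and the fitted change was -0.25 ± 0.075 (log2, SE; adjusted p = 0.0394, edgeR; 95% interval from -24.8% to -5.44%). The call was lost in 10 of 18 alternatives. The adjusted p was 0.0571 with GC offsets, where the log2 fold change was -0.16, and 0.0638 with upper-quartile scaling, 0.0579 with a filter at a mean of 1 CPM, 0.222 with the Xist term and 0.315 without the Xist-positive libraries. Leaving out any library other than WT replicate 3 ended the call, with log2 fold changes and adjusted p-values of -0.18 and 0.0679 without WT replicate 1, -0.27 and 0.0630 without WT replicate 2, -0.22 and 0.163 without KO replicate 1, -0.28 and 0.0608 without KO replicate 2, and -0.22 and 0.141 without KO replicate 3.

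Nsd1 (ENSMUSG00000021488, chromosome 13, 55209782 to 55318325), the gene mutated in Sotos syndrome, was at 218, 199 and 193 CPM in WT and 170, 189 and 169 CPM in KO. Here too every KO library was below every WT library. The log2 fold change of -0.21 ± 0.078 (SE) did not pass the test (adjusted p = 0.0770, edgeR). It was -0.15 without WT replicate 1 (adjusted p = 0.149) and -0.14 with GC offsets (0.0877). Over the 6 fits that leave out a library the adjusted p ran from 0.04999 (without WT replicate 3) to 0.285 (without KO replicate 1), and with no filter on low counts it was 0.0432. Nsd3 (ENSMUSG00000054823, chromosome 8, 25601601 to 25719667), which also gives a short form without the SET domain, was at 119, 106 and 102 CPM in WT and 107, 108 and 107 CPM in KO. The KO libraries lay inside the WT range, and the log2 fold change was -0.024, or 0.055 without WT replicate 1. The interval of Nsd3 ended at 10.1% higher in the first fit and at 13.2% higher in the second.

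Ash1l (ENSMUSG00000028053, chromosome 3, 88950622 to 89079375) is the mammalian relative of a Trithorax group gene. It was at 185, 171 and 151 CPM in WT and 154, 156 and 155 CPM in KO, again with KO inside the WT range. The log2 fold change was -0.12 (adjusted p = 0.300, edgeR) and shrank to -0.042 without WT replicate 1. Its exons overlap Dap3 on the other strand over 352 bases, 2.37% of its exon length, and Dap3 was itself called lower (log2 fold change -0.27, adjusted p = 0.0316). Without a stated strand setting, reads of that overlap cannot be told apart.

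**Figure D2:**
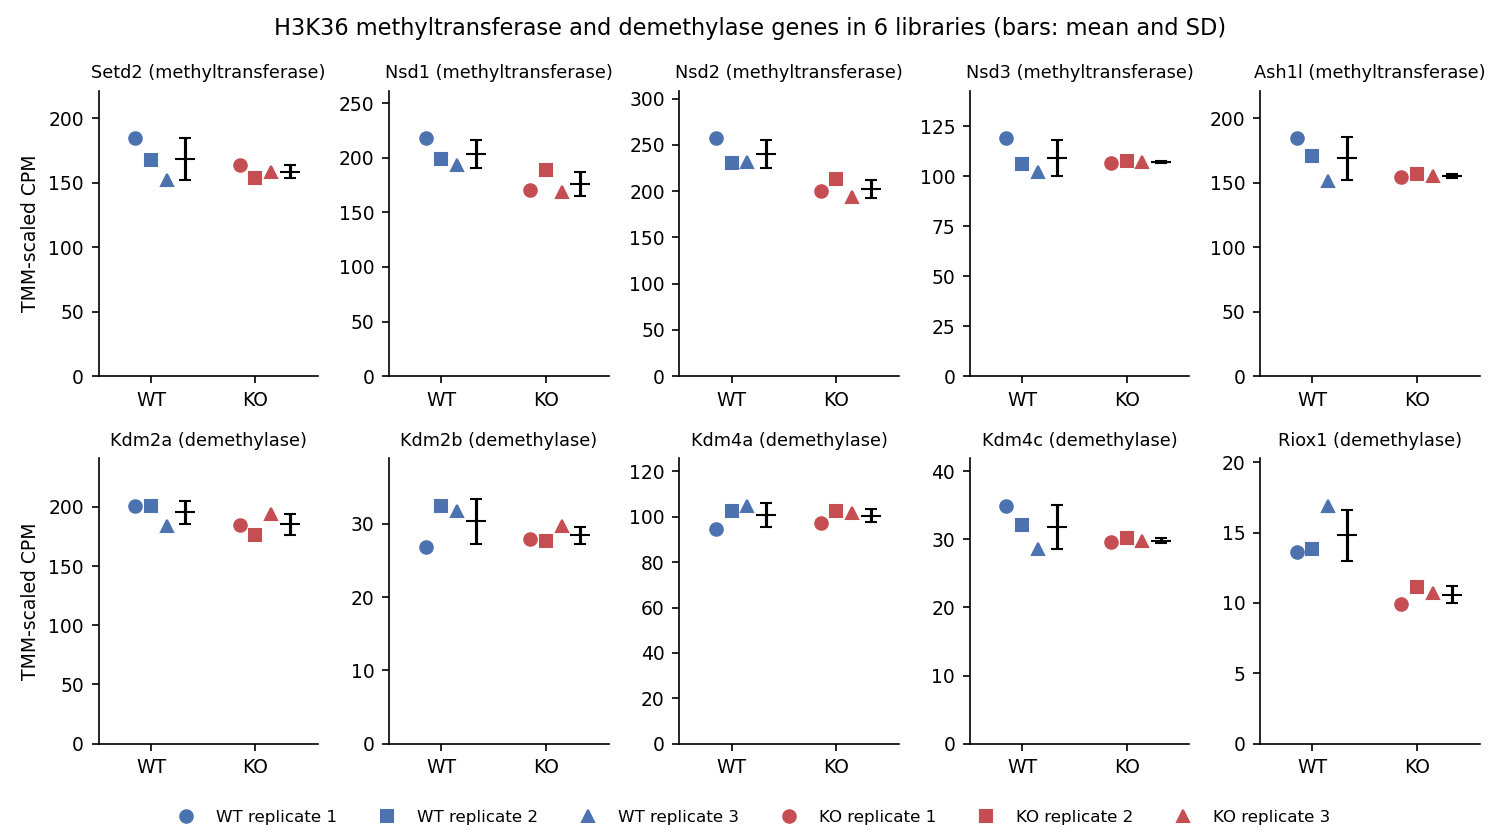
TMM-scaled CPM (vertical axes, from 0) of each enzyme gene in the 3 WT and 3 KO libraries (horizontal axes). Points are libraries, and bars give the mean and SD of each group. The groups are apart for Nsd1, Nsd2 and Riox1, all lower in KO, and overlap for the other 7 genes.

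Riox1 showed the largest change of the set. The gene (ENSMUSG00000046791, chromosome 12, 83950608 to 83952951) consists of 1 exon of 2344 bases. It was at 13.6, 13.8 and 16.9 CPM in WT and 9.96, 11.1 and 10.7 CPM in KO, so every KO library was below every WT library. The means were 14.8 ± 1.84 and 10.6 ± 0.599 CPM (SD, n = 3 each), and the log2 fold change was -0.48 ± 0.11 (SE), adjusted p = 0.0103 (edgeR). The 95% interval ran from -39.2% to -15.6%. Riox1 had the highest GC content of the 10 genes. Its log2 fold change was -0.53 without WT replicate 1 and -0.65 with GC offsets (adjusted p = 0.00632 and 0.000777, edgeR). The call depended on KO replicate 1, the lowest library, without which the log2 fold change was -0.42 with adjusted p = 0.0674. In a fit that adds Xist status it was -0.57 with adjusted p = 0.0712, where KO replicate 1 alone carries the contrast with WT. An antisense gene, Gm26571, overlaps 31.9% of the exon and had 0 counts in all libraries. Without a stated strand setting, it is not known whether reads of that overlap were counted for Riox1. The 0 counts of Gm26571 do not settle this.

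Of the 10 genes, 5 had an entry in the RefSeq promoter table (GRCm38.p6, the assembly of mm10). The upstream sequences of the floxed gene and of the gene that changed most are shown, since they differ in CpG content, the feature that the CXXC domains of KDM2A and KDM2B bind. Each is the 250 bases before the annotated start, 5′ to 3′ on the plus strand, with CpG dinucleotides in capitals.
Setd2, chr9:110532347-110532596: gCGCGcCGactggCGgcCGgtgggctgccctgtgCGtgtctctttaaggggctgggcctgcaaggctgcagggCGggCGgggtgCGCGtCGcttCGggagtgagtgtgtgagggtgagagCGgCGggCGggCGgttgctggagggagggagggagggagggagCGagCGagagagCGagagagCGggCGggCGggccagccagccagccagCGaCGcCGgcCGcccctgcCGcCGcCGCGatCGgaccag
Riox1, chr12:83950358-83950607: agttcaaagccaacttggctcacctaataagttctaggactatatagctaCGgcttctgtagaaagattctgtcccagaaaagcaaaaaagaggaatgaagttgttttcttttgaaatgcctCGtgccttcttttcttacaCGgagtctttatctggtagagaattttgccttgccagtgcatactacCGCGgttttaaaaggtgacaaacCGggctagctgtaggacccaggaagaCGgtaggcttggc
The Setd2 window held 31 CpG dinucleotides at 76.0% GC, and 5.19% of the 32851 promoter windows of the same length held as many or more. The Riox1 window held 7 at 44.0% GC, and 46.3% of windows held as many or more. The Kdm4a window held 12, the Kdm2b starts 12 to 38 and the Kdm4c starts 0 and 19. These are descriptions of sequence, and no binding or mark was measured at them.

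The paralogs Kdm2a and Kdm2b encode JmjC demethylases with an F-box, and KDM2B brings a variant Polycomb complex to CpG islands. Kdm2a (ENSMUSG00000054611, chromosome 19, 4314419 to 4398285) was at 201, 201 and 184 CPM in WT and 184, 177 and 194 CPM in KO. Kdm2b (ENSMUSG00000029475, chromosome 5, 122870665 to 122989823) was lower by CPM, at 26.9, 32.5 and 31.7 CPM in WT and 27.9, 27.6 and 29.7 CPM in KO. The groups overlapped for both genes. Their log2 fold changes were -0.078 and -0.094, with adjusted p-values of 0.473 and 0.490 (edgeR) and intervals that ended at 5.84% and 7.69% higher. WT replicate 1 was the lowest library for Kdm2b, and without it the log2 fold change was -0.16 (adjusted p = 0.151). Rnf34, on the other strand, covers 5.77% of the Kdm2b exons and did not pass the test either (adjusted p = 0.448). A930024E05Rik, also on the other strand, covers 1.83%. It was lower in every KO library but not called (adjusted p = 0.126, edgeR). Of the 50-base words of Kdm2b transcripts, 12.5% also occurred in other genes, led by Rnf34, Gm12397 and A930024E05Rik. Their part in its counts was not tested.

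The related Kdm4a and Kdm4c encode JmjC demethylases of both H3K9 and H3K36. Kdm4a (ENSMUSG00000033326, chromosome 4, 118136957 to 118180043) was at 94.7, 103 and 105 CPM in WT and 97.1, 103 and 102 CPM in KO. Its log2 fold change of -0.0045 was the closest to 0 of the set, with an interval from -10.4% to 10.9%. Kdm4c (ENSMUSG00000028397, chromosome 4, 74242497 to 74405860) was at 34.9, 32.1 and 28.5 CPM in WT and 29.5, 30.2 and 29.7 CPM in KO, with the KO values inside the WT range. Its log2 fold change was -0.096 (adjusted p = 0.472, edgeR) and -0.013 without WT replicate 1. Neither gene shared a 50-base word of its transcripts with another gene, so near-identical copies do not bear on their counts at that length.

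**Figure D3:**
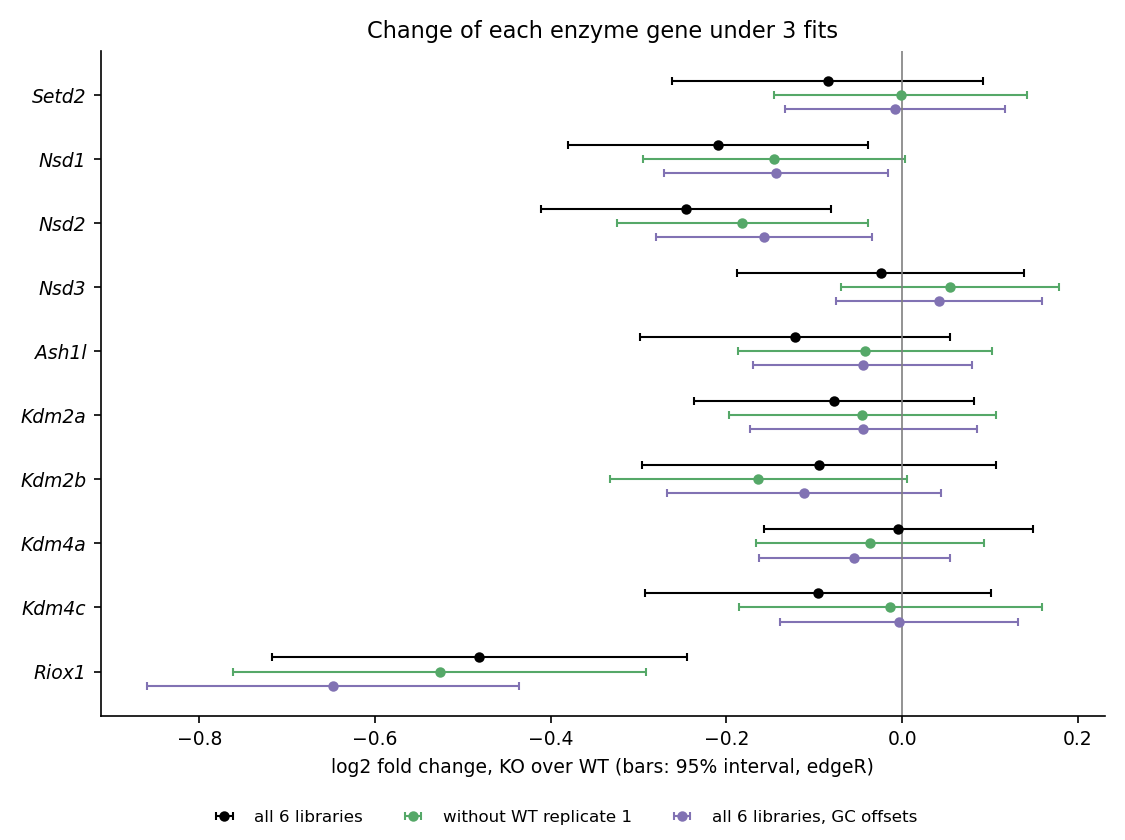
Log2 fold change of KO over WT (horizontal axis) for each enzyme gene (vertical axis) from edgeR fits to all 6 libraries, without WT replicate 1, and with GC offsets; bars are 95% intervals. Riox1 lies at -0.48, -0.53 and -0.65, Setd2 at -0.085, -0.0014 and -0.0080, and no interval lies wholly above 0.

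The upper ends of the intervals state how large a rise the data allow. For the 9 genes other than Setd2 the largest upper end was 10.9%, for Kdm4a. Over the 180 fits of the 10 genes under 18 alternatives, none called a gene higher. The highest upper ends in those fits were 21.3% for Nsd3 and for Setd2, both without the 2 Xist-positive libraries. No interval was computed for the DESeq2 and limma-voom fits, so the upper ends do not cover them. These limits hold for RNA summed over each gene, and say nothing of protein, activity or the methylation itself. The share of cells with the deletion was not measured, so the limits do not bound a rise within those cells.

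Per kilobase of annotated exon, which allows levels to be compared between genes, Kdm4a and Setd2 led the set at 17.4 ± 0.935 and 15.6 ± 1.51 CPM per kb in WT (SD, n = 3). Over all 6 libraries the ranges of neighbouring genes overlapped in the order Kdm4a, Setd2, and again in the order Kdm2a, Nsd2, Ash1l, Nsd1. The range of Setd2 (14.1 to 17.2 CPM per kb) lay above that of Kdm2a, but overlapped that of Nsd2 (11.6 to 15.3 CPM per kb). Below Nsd1 came a lower step of Nsd3, Riox1 and Kdm4c, from 5.29 to 6.55 CPM per kb on average, with overlapping ranges between neighbours. Kdm2b was lowest, at 2.47 to 2.99 CPM per kb, below every library of Kdm4c. Setd2 held 26.2% ± 0.608 of the summed per-kb level of the 5 methyltransferase genes in WT and 27.4% ± 1.18 in KO. Riox1 held 13.9% ± 1.62 of the 5 demethylase genes in WT and 10.6% ± 0.496 in KO. The lengths join the exons of all annotated transcripts, so genes with many alternative exons are set too low. The level and share of Riox1 would also be too low if reads of its overlap with Gm26571 were not counted.

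**Figure D4:**
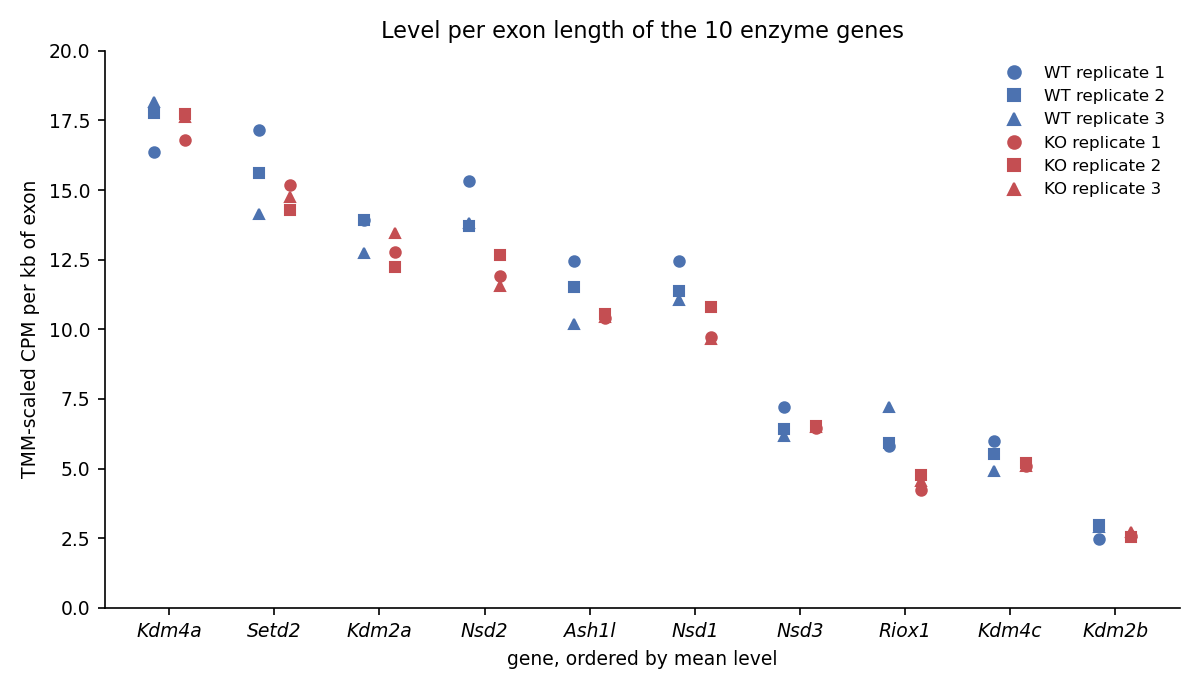
TMM-scaled CPM per kb of exon (vertical axis) for the 10 enzyme genes in order of their mean (horizontal axis), 1 point per library. Levels fall from a mean of 17.4 CPM per kb for Kdm4a to between 2.47 and 2.99 for Kdm2b, and the spread between libraries exceeds the gap between many neighbours.

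Other enzymes with reported activity on H3K36 did not pass the test either. Of 8 such genes 7 were tested and 0 were called by edgeR, with log2 fold changes from -0.20 to 0.13 and a median of 0.0075. Only Smyd2 was at an unadjusted p below 0.05 among them. The most abundant were Setd5, at 236, 220 and 206 CPM in WT and 212, 205 and 203 CPM in KO, and Riox2, the closest relative of Riox1, at 36.3, 33.4 and 33.6 CPM in WT and 35.96, 36.1 and 33.4 CPM in KO. The groups overlapped for both. Kdm4d had 44 counts over the 6 libraries and did not pass the filter.

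Of 19 genes listed as readers of H3K36 methylation, many with a PWWP domain, 2 were called, 10.5% of the list beside 21.0% of all tested genes. The 19 include Zcwpw2, annotated as a pseudogene, at a mean of 0.13 CPM. Pwwp2b, whose product joins a nucleosome remodelling and deacetylase assembly, was at 31.2, 39.4 and 40.1 CPM in WT and 48.7, 52.5 and 51.3 CPM in KO. Every KO library was above every WT library (log2 fold change 0.46 ± 0.10 SE, adjusted p = 0.0087, edgeR). It was called without each library in turn, from 0.37 without WT replicate 1, and missed the threshold with the Xist term (0.40, adjusted p = 0.135). Mtf2, a Tudor-domain subunit of Polycomb complex assemblies, was at 48.1, 39.8 and 37.2 CPM in WT and 32.4, 34.3 and 33.2 CPM in KO (log2 fold change -0.33, adjusted p = 0.0378). Every KO library of Mtf2 was below every WT library, but its call held only without WT replicate 3 among the 6 fits that leave out a library, with adjusted p up to 0.148, and without WT replicate 1 it was at -0.20 (adjusted p = 0.0734). Over the 18 alternatives Mtf2 lost its call in 9. The median log2 fold change of the list was 0.058.

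Among 7 cofactors and partners 2 were called, 28.6% of the list beside 21.0% of all tested genes, with a median log2 fold change of -0.049. Bcor, a subunit of the Polycomb complex that KDM2B recruits, was at 38.6, 38.4 and 39.4 CPM in WT and 48.7, 45.7 and 44.3 CPM in KO (log2 fold change 0.25, adjusted p = 0.0358). Bcor is X-linked, and its highest library, KO replicate 1, was not Xist-positive. With Xist status as a term its log2 fold change was 0.33, and it missed the threshold (adjusted p = 0.105, edgeR). Without the Xist-positive libraries, where KO replicate 1 alone stands for KO, the log2 fold change was 0.33. Bcor also missed the threshold with no filter (adjusted p = 0.0747, edgeR) and with the replicate block (0.0647). Spop, the substrate adaptor of a ubiquitin ligase that degrades SETD2, was at 97.2, 86.8 and 89.3 CPM in WT and 80.2, 79.0 and 74.2 CPM in KO (-0.23, adjusted p = 0.0468). The groups did not overlap for either gene. Leaving out single libraries ended the call of Bcor without WT replicate 2 or any KO replicate (up to 0.128), and of Spop without any library but WT replicate 3 (up to 0.187). Over the 18 alternatives Spop lost its call in 13, among them DESeq2 (adjusted p = 0.0589) and limma-voom (adjusted p = 0.0510).

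For other histone lysine methyltransferases and demethylases, 3 of 35 tested genes were called, all lower, which is 8.57% of the list beside 21.0% of all tested genes called and 9.08% called lower, with a median log2 fold change of 0.025. Suv39h2, an H3K9 methyltransferase, fell from 15.7, 14.1 and 12.6 CPM in WT to 8.49, 9.90 and 10.1 CPM in KO, with a log2 fold change of -0.57 ± 0.11 (SE) and adjusted p = 0.00532 (edgeR). It was called in 18 of 18 alternatives. The H3K4 demethylase genes Kdm5a (115 to 138 CPM in WT, 99.4 to 105 in KO) and Kdm5b (92.1 to 97.7 and 76.2 to 84.2 CPM) had log2 fold changes of -0.27 and -0.22, with adjusted p-values of 0.0377 and 0.0449 (edgeR). Leaving out single libraries ended the call of Kdm5a except without WT replicate 3, and that of Kdm5b in every case, with adjusted p up to 0.139 and 0.249. Over the 18 alternatives Kdm5a lost its call in 9 and Kdm5b in 13. Over these 4 lists, 2 genes were called higher and 5 lower, but 6 higher and 1 lower without WT replicate 1, 7 and 1 with a filter at a mean of 1 CPM, and 3 and 1 with upper-quartile scaling. With the Xist term, Suv39h2 was the 1 gene called of the 69 listed.

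**Figure D5:**
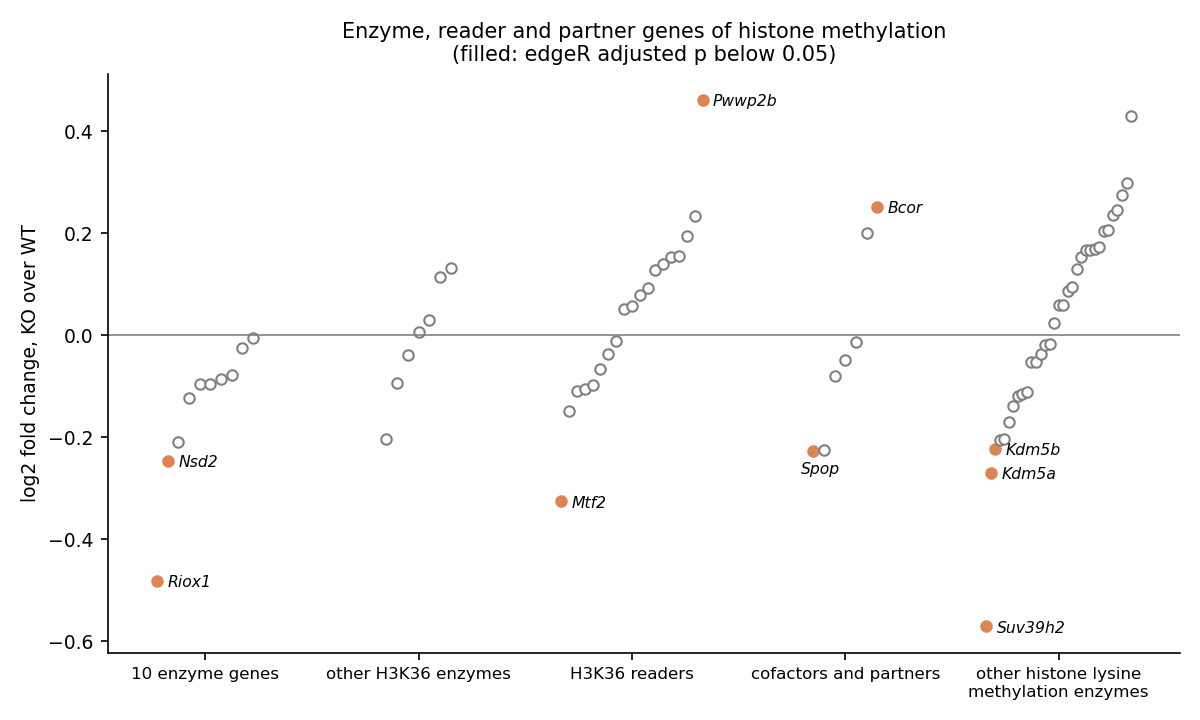
Log2 fold change of KO over WT (vertical axis) for the genes of 5 lists (horizontal axis), ordered within each list; filled points passed the edgeR test and are named. The Y-linked genes Kdm5d and Uty are not drawn. The 10 enzyme genes lie from -0.48 to -0.0045, and the other lists extend to both sides of 0.

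By the shape of its profile over the 6 libraries, Setd2 was most like Appl1, Supt16 and Mest, among 8943 protein-coding genes with a mean of at least 10 CPM. Their root mean square differences from Setd2 in centred log2 CPM were 0.0092, 0.0156 and 0.0174. Supt16 encodes a subunit of FACT, a histone chaperone of transcribed chromatin. Among the other enzyme genes Kdm4c and Ash1l were nearest, at ranks 106 and 131, and Riox1 was farthest, at rank 7882. All 3 genes named first were, like Setd2, highest in WT replicate 1, and their GC content was 41.1% to 47.4%.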

How the data were processed

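RNA was sequenced from 6 cultures, 3 per genotype; the sample titles give group and replicate. The authors deposited raw read counts per Ensembl gene, and Trimmomatic 0.38, STAR 2.7.1a, HTSeq 0.11.2 and mm10 are named per the submitters' processing notes. For the annotation, strand setting and multi-mapped reads, the authors' choice is not given in the sources used here. Symbols, coordinates, exon and transcript sequences came from GENCODE M21, which matched 48144 of 48526 genes. Counts were filtered with edgeR 4.0.16 (filterByExpr, defaults; 17571 genes kept), scaled with TMM factors and tested by a quasi-likelihood fit with genotype as its term, in R 4.3.3, with Benjamini-Hochberg adjustment over all tested genes and a threshold of 0.05. SEs were derived from the fold change and the F statistic, and 95% intervals use the fit's degrees of freedom. The fit was tested on simulated data. Replicates differed by a chi-square of 22.7 to 77.1 per degree of freedom, so none was a copy.

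The members and lists were chosen with earlier results of these data known; 1 gene of the cofactor list is not reported here and was left out of its counts. All 10 members were named, and from each other list up to 4 called genes by adjusted p, or the 2 most abundant where none was called. Smyd2, Kdm4d, overlapping genes and sex-linked enzymes were named after their values were seen, as were markers. Alternatives were scaling (DESeq2 factors, library totals, upper quartile), filters (a total count of 1, a mean of 1 CPM), DESeq2 1.42.0, limma-voom 3.58.1, the replicate block, an Xist term (above 10 CPM), leaving out the Xist-positive libraries or chromosomes X, Y and M, leaving out each library, and, added after seeing the data, offsets for 10 GC bins of the longest transcript. Figures were drawn with matplotlib 3.10.9.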

Additional observations from a re-analysis of the deposited data

How the results depend on the processing

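The number of enzyme genes called, 2 with all libraries, was 1 with upper-quartile scaling, with a mean of at least 1 CPM and with GC offsets, 3 with no filter, and 0 with the Xist term and without the Xist-positive libraries, where fewer samples carry the contrast. Leaving out each library gave 0 to 3. None was called higher under any of the 18 alternatives. Of 180 fits of single enzyme genes, 154 kept the direction and the side of the threshold, 13 lost a call (10 of Nsd2 and 3 of Riox1), 2 gained one (Nsd1) and 11 turned to a value above 0. The last were Nsd3 and Kdm4a: with upper-quartile scaling 0.00051 and 0.022, with a mean of at least 1 CPM 0.0039 and 0.024, for Kdm4a with DESeq2's size factors 0.0030 and with DESeq2 0.0030, for Nsd3 with GC offsets 0.042, and without single libraries from -0.073 to 0.055 for Nsd3 and from -0.037 to 0.037 for Kdm4a; neither was called. Over all genes, 3698 calls became 1163 with the Xist term, 907 without the Xist-positive libraries and 1683 to 3766 without a single library (1683 without KO replicate 1, 1933 without KO replicate 3). The count over the 4 other lists, 7, was 4 with upper-quartile scaling, 12 with no filter, 1 with the Xist term, 1 without the Xist-positive libraries, 15 with GC offsets and 2 to 7 without a single library (3 without WT replicate 2, 2 without KO replicate 2, 2 without KO replicate 3). With the replicate number as a block, the enzyme genes called numbered 2. Same-numbered libraries did not deviate together (r from -0.15 to 0.042), and differently numbered ones gave r from -0.11 to 0.10. The deviations were taken from group means of 3 libraries, so these values cannot decide whether the numbers pair libraries.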

Other observations

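Some histone demethylase genes on the sex chromosomes followed Xist rather than the genotype labels. The Y-linked H3K4 demethylase gene Kdm5d had 34.5, 30.9 and 29.6 CPM in the WT libraries, 29.3 CPM in KO replicate 1, and 0.053 and 0.020 CPM in KO replicates 2 and 3. Uty, the Y-linked partner of Kdm6a, had 31.1, 26.95 and 25.2 CPM in the WT libraries, 24.5 CPM in KO replicate 1, and 0.032 and 0.071 CPM in KO replicates 2 and 3. Their X-linked relatives ran the other way. Kdm6a, an H3K27 demethylase gene, was at 37.9 to 44.5 CPM in the 4 libraries without Xist and at 61.8 and 63.0 CPM in KO replicates 2 and 3. Kdm5c was at 126 to 130 CPM in the libraries without Xist and at 174 and 160 CPM in the others. These genes were singled out after their values were seen, and none of the 4 passed the edgeR test of genotype (adjusted p from 0.0639 to 0.332).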
